A study of Homo sapiens with 6 samples.

Results

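The genes described here are those of the proteasome, the protease that degrades proteins marked with ubiquitin, together with the factors that assemble, cap or activate it. They were taken from the annotation of the Illumina HT-12 v4 BeadChip as every symbol that begins with PSMA, PSMB, PSMC, PSMD, PSME, PSMF or PSMG, plus POMP, with a few symbols left out, which gave 47 of the 20046 named genes and 73 of the 47231 probes. Of the 47 symbols, 43 were proteasome genes. The other 4 share only the letters, namely PSMC3IP, a meiotic recombination factor first named for binding PSMC3, PSME3IP1, a partner of PSME3, and the antisense RNA genes PSMD6-AS2 and PSMG3-AS1. The subunit genes PSMA7, PSMC5, PSMD7 and PSMD13 were not analysed here.
HEK-293T, the source of the RNA, is a cell line from human embryonic kidney that carries the SV40 large T antigen. Cells were transduced with lentivirus at a multiplicity of infection (MOI) of 10, selected with 1 µg/ml puromycin and harvested on day 7. On 3 arrays (RUNX1) the virus carried the transcription factor RUNX1, and on 3 arrays (MCS) it carried a multiple cloning site with no gene, so that both groups went through transduction and selection. The paper calls the arrays biological triplicates, and the labels do not say that they came from separate cultures, so p-values measure the spread between these arrays only.
The proteasome is built from a barrel and its ends. Stacked rings form the core particle, the outer ones from alpha subunits, which hold the gate, and the inner ones from beta subunits, of which PSMB5, PSMB6 and PSMB7 carry the standard active sites. The cap, or regulatory particle, has a base, whose ATPases (PSMC genes) unfold substrates, and a lid, which includes the deubiquitinase PSMD14. Other ends can take the place of the cap, the PSME1 and PSME2 ring, PSME3 or PSME4, and dedicated chaperones, among them PSMG1 to PSMG4 and POMP, guide the assembly of the core. Proliferating lines such as HEK-293T express these genes at all times, and the factor NFE2L1 raises them together when proteasome activity falls.
Sequences upstream of 38 of the 43 proteasome genes were found in RefSeq (GRCh38.p14), and the 250 bases before the first listed start of each were searched on both strands for the RUNX motif as TGTGGT or TGCGGT. The first was present in 3 of the 38 (7.9%) and the second in 0, and 16.1% of 27305 promoters of all genes held at least 1 of them. Shown here are the 3 members with TGTGGT, which bears on the overexpressed factor, then PSMB2, the only member whose groups did not overlap, and PSME1 and PSME2, which varied most among the activators. Capitals mark TGTGGT, or its reverse complement ACCACA, and an interferon-response motif, which is GAAA, any 2 bases and GAAA again, on either strand. These motifs do not overlap each other in the sequences shown.
PSMB5 (chr14:23035221-23035470, minus strand): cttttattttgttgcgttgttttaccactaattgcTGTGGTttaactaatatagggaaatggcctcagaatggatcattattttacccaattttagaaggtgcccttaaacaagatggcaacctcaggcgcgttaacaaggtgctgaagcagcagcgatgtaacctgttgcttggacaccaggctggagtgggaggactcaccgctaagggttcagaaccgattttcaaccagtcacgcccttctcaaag
PSMD6 (chr3:64023495-64023744, minus strand): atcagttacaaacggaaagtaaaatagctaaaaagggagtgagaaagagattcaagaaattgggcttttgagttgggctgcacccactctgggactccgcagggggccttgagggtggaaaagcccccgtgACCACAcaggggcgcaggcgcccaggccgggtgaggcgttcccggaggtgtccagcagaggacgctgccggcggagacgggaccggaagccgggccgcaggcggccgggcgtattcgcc
PSMD9 (chr12:121888540-121888789, plus strand): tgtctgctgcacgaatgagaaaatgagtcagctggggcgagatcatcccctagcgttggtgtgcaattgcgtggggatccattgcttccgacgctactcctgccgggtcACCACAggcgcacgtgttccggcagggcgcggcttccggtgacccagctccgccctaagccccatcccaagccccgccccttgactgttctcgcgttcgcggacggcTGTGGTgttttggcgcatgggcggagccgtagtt
PSMB2 (chr1:35641527-35641776, minus strand): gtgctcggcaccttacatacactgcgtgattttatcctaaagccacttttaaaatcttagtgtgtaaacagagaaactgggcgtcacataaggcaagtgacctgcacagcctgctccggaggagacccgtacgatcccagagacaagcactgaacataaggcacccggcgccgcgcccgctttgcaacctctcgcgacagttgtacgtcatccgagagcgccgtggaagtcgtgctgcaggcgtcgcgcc
PSME1 (chr14:24135944-24136193, plus strand): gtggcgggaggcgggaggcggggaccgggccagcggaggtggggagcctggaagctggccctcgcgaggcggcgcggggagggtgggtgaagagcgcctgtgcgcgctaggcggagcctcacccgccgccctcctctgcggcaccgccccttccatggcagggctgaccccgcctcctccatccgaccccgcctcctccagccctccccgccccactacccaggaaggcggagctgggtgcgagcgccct
PSME2 (chr14:24146611-24146860, minus strand): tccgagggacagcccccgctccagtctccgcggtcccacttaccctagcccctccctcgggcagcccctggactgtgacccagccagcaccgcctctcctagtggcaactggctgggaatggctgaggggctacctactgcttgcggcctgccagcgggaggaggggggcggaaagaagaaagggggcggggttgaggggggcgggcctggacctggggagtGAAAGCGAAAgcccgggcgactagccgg
The motif TGTGGT lay at positions -215 to -210 of PSMB5, -119 to -114 of PSMD6, and -141 to -136 and -34 to -29 of PSMD9, counted back from that start. The interferon motif was present in 5 of the 38 members, PSMA4, PSMB4, PSMB10, PSME2 and PSMG4 (13.2%, beside 3.07% of all promoters), and in PSME2 it lay at -28 to -19. CCGGAA, an ETS factor motif, was present in 15 (39.5%, beside 14.8% of all promoters), CCAAT in 15 (39.5%, beside 33.0%) and TGANNNNGC, the loose form of the antioxidant response element that NFE2L1 binds, in 21 (55.3%, beside 35.4%). A match of letters is a description and not a binding site.
Some features of the arrays bear on every result. Between 18096 and 19321 probes per array were detected at a detection p under 0.05, and no RUNX1 signal was detected on any RUNX1 array (0 of 3 probes, with 1 of 18 signals detected in all, on an MCS array; their place relative to the transduced sequence was not determined), so the arrays give no check of the overexpression. Of 10 HEK293T markers on the array 7 were detected on all 6 arrays, whereas PAX2 and SALL1 were detected on none. Of 6 blood cell markers, PTPRC, CD3E, SPI1 and ITGAM were detected on none, HBB on 1 and CD14 on all 6. Of 6 fibroblast markers 0 were detected on all 6 and only THY1 on none. By the probe detected most often, COL1A1 was detected on 4 arrays, LUM on 3, DCN on 2, and COL1A2 and COL3A1 on 1 each. The highest log2 value of LUM was 8.37. The first principal component over all 11129 genes tested held 66.7% of the variance and crossed the labels: scores were 21.1 and 21.3 for RUNX1 replicates 1 and 2 but -26.6 for the third, and 25.6 for MCS replicate 1 but -15.0 and -26.4 for the other arrays of that group. RUNX1 replicate 3 and MCS replicate 1 therefore stand apart from the rest of their groups, and results are also given without them where they rest on these arrays. Whether these labels are right cannot be settled from the files, so each difference is one between arrays as labelled.
In no proteasome gene did RUNX1 overexpression give a difference from the MCS control that limma called (adjusted p under 0.05). Of the 47 members, 42 were detected on at least 3 arrays and entered the test, where 0 were called higher and 0 lower, beside a background of 0% of the 11129 genes in each direction. In RNA from whole cultures, fewer cells with a transcript and less of it per cell cannot be told apart. At an unadjusted p under 0.05 there were also 0 of the 42, beside 2.26% of all genes. Expression values are log2 of the background-corrected, quantile-normalised intensity of the brightest detected probe. The log2 differences, RUNX1 minus MCS, of the 39 proteasome genes among them ran from -0.15 for PSMC4 to 0.32 for PSMD8, with a median of 0.037 beside 0.021 over all genes tested, and 23 lay above 0 and 16 below (55.4% of all genes lay above).
The intervals of these differences were narrow. Each of the 39 had a 95% confidence interval that left out a 2-fold change in either direction, beside 92.4% of all genes, and 34 also left out a 1.5-fold change, beside 57.7%. The 5 whose interval reached 1.5-fold were PSMB1, PSMD8, PSMG3, PSME1 and PSME2. The median SD within a group was 0.12 with RUNX1 and 0.14 with MCS for proteasome genes, and 0.20 and 0.20 over all genes. Neither the intervals nor the SDs were compared with those of genes of like intensity. The plot of differences by role shows the same range.

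**Figure D1:**
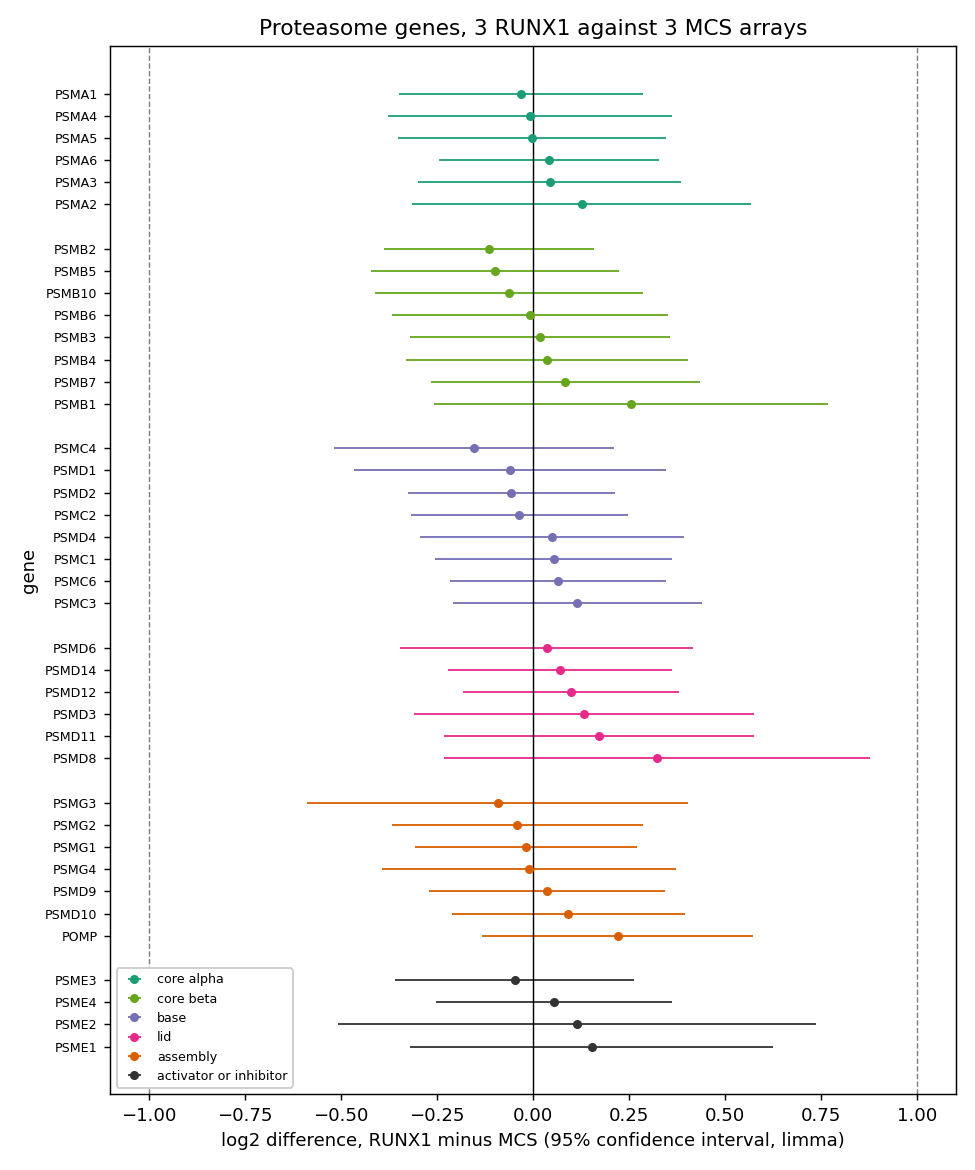
Log2 differences, RUNX1 minus MCS, of the 39 proteasome genes tested, with 95% confidence intervals from limma (x axis; 3 arrays a group), 1 gene a row (y axis), coloured by role. Every interval includes 0, and none reaches the dashed lines at a 2-fold change.

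Among the core genes, 14 of 16 were tested (6 of 7 alpha and 8 of 9 beta), with a median log2 difference of 0.0085, 7 above 0 and 7 below. For PSMB5, which carries the chymotrypsin-like active site, the expression value was 12.39, 12.36 and 12.17 over RUNX1 replicates 1 to 3, then 12.57, 12.31 and 12.33 over MCS replicates 1 to 3. The groups overlapped, with a difference of -0.10 (95% confidence interval -0.42 to 0.23), which was -0.016 without MCS replicate 1 and -0.15 without MCS replicate 2. PSMB6, the caspase-like subunit, was at 13.35, 13.46 and 13.22 with RUNX1 and 13.59, 13.20 and 13.27 with MCS. MCS replicate 1 was highest for PSMB6, and the group means differed by -0.0080 (95% confidence interval -0.37 to 0.35). PSMB7, the trypsin-like subunit, stood at 13.24, 13.22 and 12.96 with RUNX1 and 13.24, 12.99 and 12.93 with MCS. Its difference was 0.084 (95% confidence interval -0.27 to 0.43), again with overlapping groups, and leaving out MCS replicate 3 or 1 gave 0.021 or 0.18. PSMB10, which replaces PSMB7 in the immunoproteasome and is induced by interferon-gamma, was detected on every array at 11.26, 11.36 and 11.64 with RUNX1 and 11.59, 11.38 and 11.48 with MCS. Here RUNX1 replicate 3 and MCS replicate 1 were the highest arrays of their groups, and the difference was -0.062 (95% confidence interval -0.41 to 0.29).
PSMB2, a beta subunit with no active site, was the only member whose groups did not overlap. Its expression value was 12.07, 12.14 and 12.13 over RUNX1 replicates 1 to 3, then 12.30, 12.17 and 12.22 over MCS replicates 1 to 3, so that each RUNX1 array lay below each MCS array, by a gap smaller than the range within the MCS group. The means were 12.12 ± 0.036 (SD, n = 3) for RUNX1 and, for MCS, 12.23 ± 0.065 (SD, n = 3), a difference of -0.11 (95% confidence interval -0.39 to 0.16). The 2-sided exact permutation p was 0.1, the smallest that 3 arrays against 3 allow, and the unadjusted limma p was 0.356. Groups lay apart in this direction for 1 of the 42 members, beside 2.75% of all genes, and in the other for 0, beside 3.81% (6.56% in either direction).
PSMB1, another beta subunit without an active site, had the largest difference of the core. It was at 13.71, 13.77 and 13.40 with RUNX1 and 13.70, 13.47 and 12.94 with MCS, with MCS replicate 3 far below the other arrays. The difference of 0.25 (95% confidence interval -0.26 to 0.77) was 0.040 without MCS replicate 3 and 0.42 without MCS replicate 1. The other core genes tested, PSMA1 to PSMA6, PSMB3 and PSMB4, had differences from -0.031 for PSMA1 to 0.13 for PSMA2. PSMA8, the testis form of an alpha subunit, and PSMB11, the thymus form of PSMB5, were not detected: 0 of 18 signals passed at a detection p under 0.05.
All 14 cap genes with a named probe were tested, with a median difference of 0.059, 10 above 0 and 4 below. The 8 base genes had a median of 0.0072, and the 6 lid genes of 0.12, all 6 above 0. None of the 6 passed the test, and the difference between base and lid was not tested. PSMD8, a lid subunit, had the largest difference of all members. Its expression value was 9.44, 10.37 and 10.05 over RUNX1 replicates 1 to 3, then 9.75, 9.57 and 9.57 over MCS replicates 1 to 3. RUNX1 replicate 2 was highest and RUNX1 replicate 1 lowest of all 6 arrays, so both extremes lay within the RUNX1 group. The difference was 0.32 (95% confidence interval -0.23 to 0.88), and ranged from 0.12 without RUNX1 replicate 2 to 0.58 without the first.
PSMD11, a lid scaffold subunit, was at 7.57, 7.21 and 7.68 with RUNX1 and 7.46, 7.12 and 7.36 with MCS. Its groups overlapped, with a difference of 0.17 (95% confidence interval -0.23 to 0.57), and leaving out RUNX1 replicate 3 gave 0.075 whereas leaving out RUNX1 replicate 2 gave 0.31. PSMD3, also of the lid, was at 8.31, 8.40 and 8.51 with RUNX1 and 7.91, 8.34 and 8.58 with MCS. MCS replicate 1 was the lowest array here, against the pattern of most members, and the difference of 0.13 (95% confidence interval -0.31 to 0.58) turned to -0.050 without it and was 0.28 without MCS replicate 3. For PSMD14, the deubiquitinase of the lid, PSMD12 and PSMD6 the differences were 0.070, 0.10 and 0.036.
In the base, PSMC4, 1 of the ATPases, had the largest difference below 0. It was at 10.16, 10.10 and 10.36 with RUNX1 and 10.38, 10.14 and 10.56 with MCS. MCS replicate 3 was highest, and RUNX1 replicate 2 lowest. Its difference was -0.15 (95% confidence interval -0.52 to 0.21), and -0.053 without MCS replicate 3 and -0.26 without MCS replicate 2. PSMC1, PSMC2, PSMC3 and PSMC6, the other ATPases tested, had differences from -0.035 to 0.12. The scaffold subunits PSMD1 and PSMD2 had -0.060 and -0.056, and the ubiquitin receptor PSMD4 had 0.050.
Assembly factors gave 7 of 8 tested genes and a median difference of -0.010, 3 above 0 and 4 below. POMP, which completes the maturation of the core, had the smallest unadjusted p of all members (0.184 from limma). It was at 12.70, 12.79 and 12.69 over RUNX1 replicates 1 to 3, then 12.71, 12.26 and 12.55 over MCS replicates 1 to 3. MCS replicate 2 was the lowest array and MCS replicate 1 lay among the RUNX1 arrays. The means were 12.73 ± 0.051 (SD, n = 3) for RUNX1 and, for MCS, 12.51 ± 0.23 (SD, n = 3), a difference of 0.22 (95% confidence interval -0.13 to 0.57). This difference was 0.10 without MCS replicate 2 and 0.32 without MCS replicate 1, and the 2-sided exact permutation p was 0.3. PSMG3, a core chaperone, was at 8.90, 8.80 and 9.45 with RUNX1 and 8.93, 9.12 and 9.38 with MCS. RUNX1 replicate 3 and MCS replicate 3 were highest, and the difference was -0.091 (95% confidence interval -0.59 to 0.40). Its partner PSMG4 was at 11.30, 11.32 and 10.997 with RUNX1 and 11.44, 11.16 and 11.04 with MCS. On those same 2 arrays PSMG4 was lowest, and the groups differed by -0.010 (95% confidence interval -0.39 to 0.37). PSMG1 and PSMG2, which form the other core chaperone pair, were at 11.18, 11.21 and 11.17 with RUNX1 and 11.27, 11.28 and 11.07 with MCS for the first and 11.13, 10.94 and 10.86 with RUNX1 and 11.14, 10.87 and 11.03 with MCS for the second. Neither showed separate groups, with differences of -0.019 (95% confidence interval -0.31 to 0.27) and -0.041 (95% confidence interval -0.37 to 0.29). The base chaperones PSMD9 and PSMD10 had 0.037 and 0.092, and PSMD5, another base chaperone, was not detected on any array.
Of the alternative ends, 4 of 5 genes were tested, with a median difference of 0.085, 3 above 0 and 1 below. PSME1 and PSME2, interferon-inducible subunits of 1 ring, varied across arrays more than the other 2. PSME1 was at 11.82, 11.85 and 11.31 over RUNX1 replicates 1 to 3, then 11.79, 11.38 and 11.36 over MCS replicates 1 to 3. PSME2 was at 11.35, 11.39 and 10.86 over RUNX1 replicates 1 to 3, then 11.62, 10.88 and 10.74 over MCS replicates 1 to 3. For both, RUNX1 replicates 1 and 2 and MCS replicate 1 were higher than the other 3 arrays, and the groups overlapped. The differences were 0.15 (95% confidence interval -0.32 to 0.62) for PSME1 and 0.12 (95% confidence interval -0.51 to 0.74) for PSME2. That of PSME1 became 0.074 or 0.057 when RUNX1 replicate 1 or 2 was left out, 0.33 without the third and 0.29 without MCS replicate 1, and that of PSME2 was -0.054 without MCS replicate 3 and 0.38 without MCS replicate 1. PSME3, which forms a nuclear activator, was between 8.93 (RUNX1 replicate 3) and 9.19 (MCS replicate 1). It did not differ beyond the spread (-0.048, 95% confidence interval -0.36 to 0.26). PSME4, a single-chain activator, was at 10.78, 10.60 and 10.51 with RUNX1 and 10.64, 10.59 and 10.49 with MCS. RUNX1 replicate 1 was highest, and the difference was 0.056 (95% confidence interval -0.25 to 0.36). PSMF1, an inhibitor of the core in vitro, was not detected on any array, with a brightest intensity of 111.

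**Figure D2:**
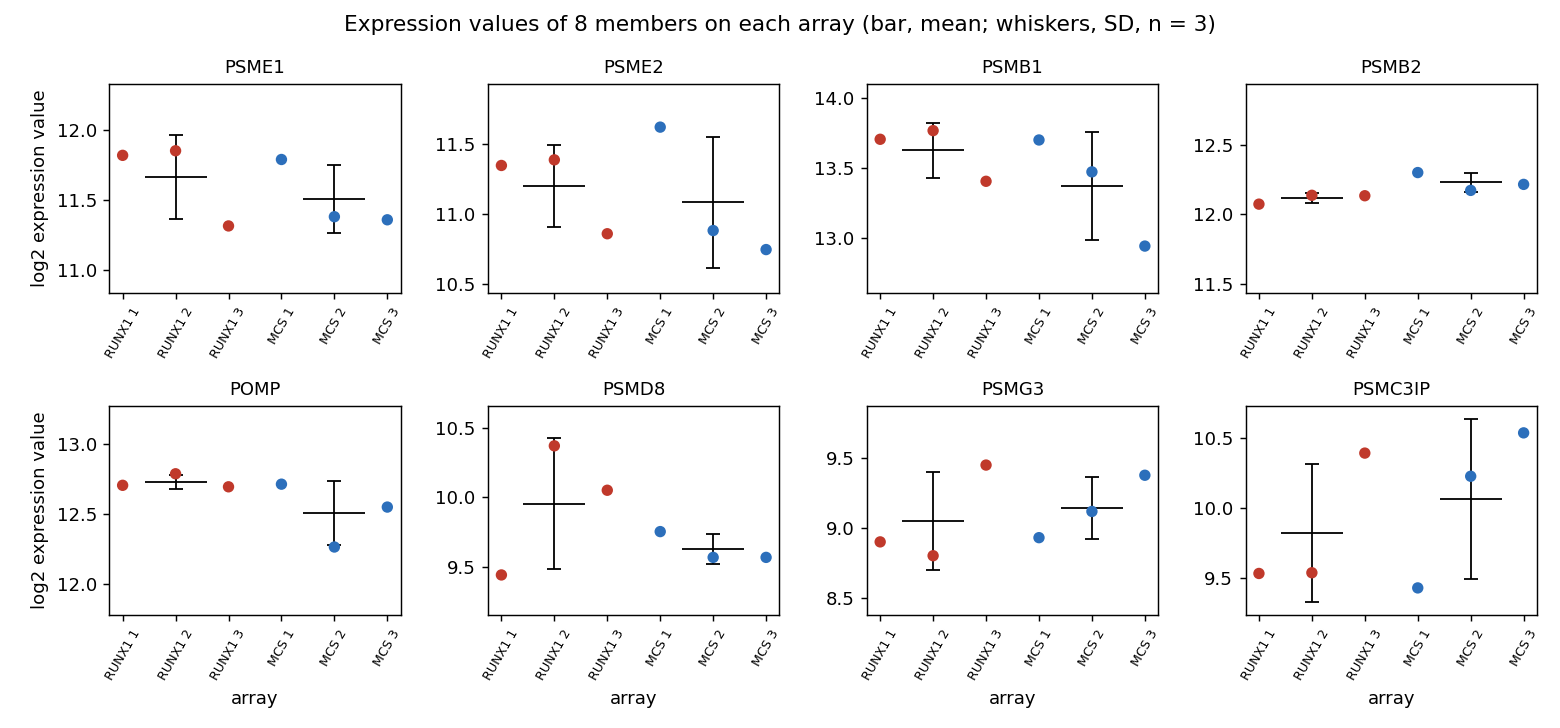
Log2 expression values (y axis; each panel spans 1.5) of 8 members on each of the 3 RUNX1 (red) and 3 MCS (blue) arrays (x axis), with group means and SDs. PSME1 and PSME2 are high on RUNX1 1, RUNX1 2 and MCS 1, PSMG3 and PSMC3IP are low there, and PSMB2 alone has no overlap between groups.

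Without RUNX1 replicate 3 and MCS replicate 1, a choice made after the data were seen, 3 of the 42 members passed an adjusted p under 0.05 from limma, beside 1585 of the 11129 genes. They were PSME1 (0.47, adjusted p = 0.0475), PSME2 (0.55, adjusted p = 0.0331) and PSMC3IP (-0.85, adjusted p = 0.0157). The 2 arrays left of each group then lie on opposite sides of the first principal component, so that transduction and the separation of the arrays cannot be told apart in these differences.
Most members were high and low on the same arrays. As a median deviation from each gene's own mean over the 6 arrays, the 39 proteasome genes were at 0.083, 0.075 and -0.077 over RUNX1 replicates 1 to 3, then 0.13, -0.047 and -0.11 over MCS replicates 1 to 3, beside 0.029, 0.031 and -0.023 over RUNX1 replicates 1 to 3, then 0.022, -0.013 and -0.029 over MCS replicates 1 to 3 for all genes. MCS replicate 1 was above the gene's own mean for 33 of the 39 (beside 54.0% of all genes) and was the highest array for 19 (20.7% of all genes). MCS replicate 3 was above the mean for 9 (45.0% of all genes) and the lowest array for 13 (20.6% of all genes). The spread of the median within a group was thus larger than the median difference between groups. These counts describe 6 arrays and were not tested, because genes are not replicates.
The medians of each role by array are a description, and differences between roles were not tested. For the 4 activators they were 0.19, 0.17 and -0.19 over RUNX1 replicates 1 to 3, then 0.18, -0.11 and -0.17 over MCS replicates 1 to 3. Those of the core were 0.085, 0.078 and -0.12 over RUNX1 replicates 1 to 3, then 0.15, -0.028 and -0.11 over MCS replicates 1 to 3. The cap had 0.0026, 0.065 and 0.037 over RUNX1 replicates 1 to 3, then 0.070, -0.070 and -0.059 over MCS replicates 1 to 3. Within the cap, RUNX1 replicate 3 had a median of -0.031 over the base, with 3 of 8 genes above their own mean, and of 0.11 over the lid, with 5 of 6 above. Assembly factors had 0.086, 0.016 and -0.027 over RUNX1 replicates 1 to 3, then 0.094, -0.047 and -0.077 over MCS replicates 1 to 3. In 6 genes the highest array was RUNX1 replicate 3 (PSMB10, PSMC2, PSMD11 and PSMG3) or MCS replicate 3 (PSMC4 and PSMD3), against the common order. The plot of deviations by array shows each gene.

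**Figure D3:**
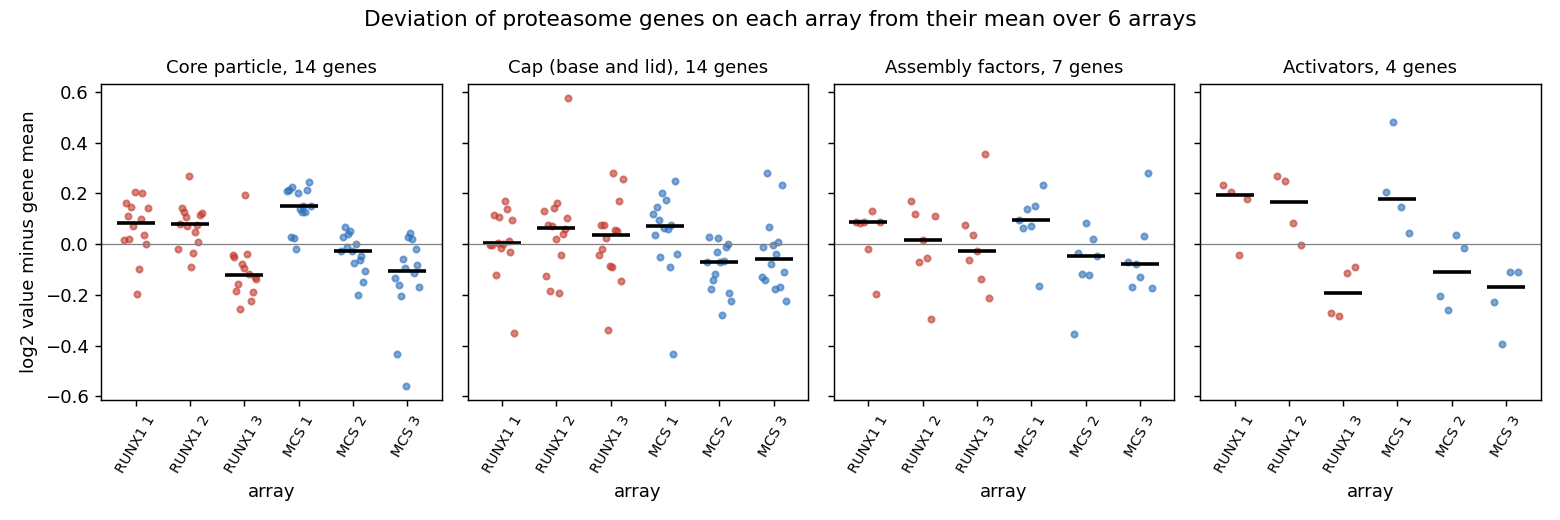
Log2 value minus the gene's own mean over the 6 arrays (y axis) for each tested proteasome gene (points) and the median of each role group (bars), by array (x axis; red RUNX1, blue MCS). The core medians are highest on MCS 1 and lowest on RUNX1 3.

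PSMC3IP, which is not a proteasome gene, had the widest range of all members (1.11). It was at 9.53, 9.53 and 10.39 over RUNX1 replicates 1 to 3, then 9.43, 10.23 and 10.54 over MCS replicates 1 to 3. MCS replicate 1 and RUNX1 replicates 1 and 2, the arrays where PSME1 was higher than on the others, were the lowest for PSMC3IP. The difference was -0.24 (95% confidence interval -1.06 to 0.57), the only interval of a member that reached 2-fold, and was -0.56 without MCS replicate 1 and -0.0073 without MCS replicate 3. PSME3IP1 and PSMD6-AS2 had 0.10 and -0.0045, and PSMG3-AS1 was not detected. PSMD6-AS2 was detected on 6 arrays with expression values near the floor, from 5.53 to 5.71.
Probes of the same gene gave differences of the same sign in most genes that had several, but not in all. Of the 60 probes of members that were detected, 0 passed an adjusted p under 0.05 from limma over all 18867 probes, beside 0% of them. In 13 genes with more than 1 detected probe the median spread between probes was 0.062, and the signs differed in 5. The widest spreads were those of PSMD4 (-0.095 to 0.14), PSMA1 (-0.18 to 0.036), PSME1 (0.15 to 0.33) and PSMA4 (-0.0075 to 0.16). The kept PSMD4 probe was at 12.57, 12.72 and 12.47 with RUNX1 and 12.74, 12.49 and 12.39 with MCS, and that of PSMA4 at 13.03, 13.13 and 12.85 with RUNX1 and 13.23, 12.995 and 12.80 with MCS. That of PSMA1 was at 12.80, 12.76 and 12.74 with RUNX1 and 12.99, 12.75 and 12.65 with MCS. In all 3 MCS replicate 1 was the highest array and MCS replicate 3 the lowest. The second PSME1 probe was near background, detected on 5 arrays, at 5.85, 5.89 and 5.89 on the RUNX1 arrays and 5.42, 5.63 and 5.59 on the MCS arrays, and did not follow the order of the bright probe. Its groups did not overlap, nor did those of a second PSMA1 probe, at 10.03, 10.07 and 9.90 on the RUNX1 arrays and 10.26, 10.11 and 10.19 on the MCS arrays, beside 7.51% of all probes (3.47% with RUNX1 higher and 4.04% with RUNX1 lower). These were not called, with an unadjusted limma p of 0.0347 and 0.197 and an adjusted p of 1.00 for each. For POMP, PSMC6, PSMG4, PSMD12 and PSMC3IP at least 1 further probe did not pass the filter while another did.

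**Figure D4:**
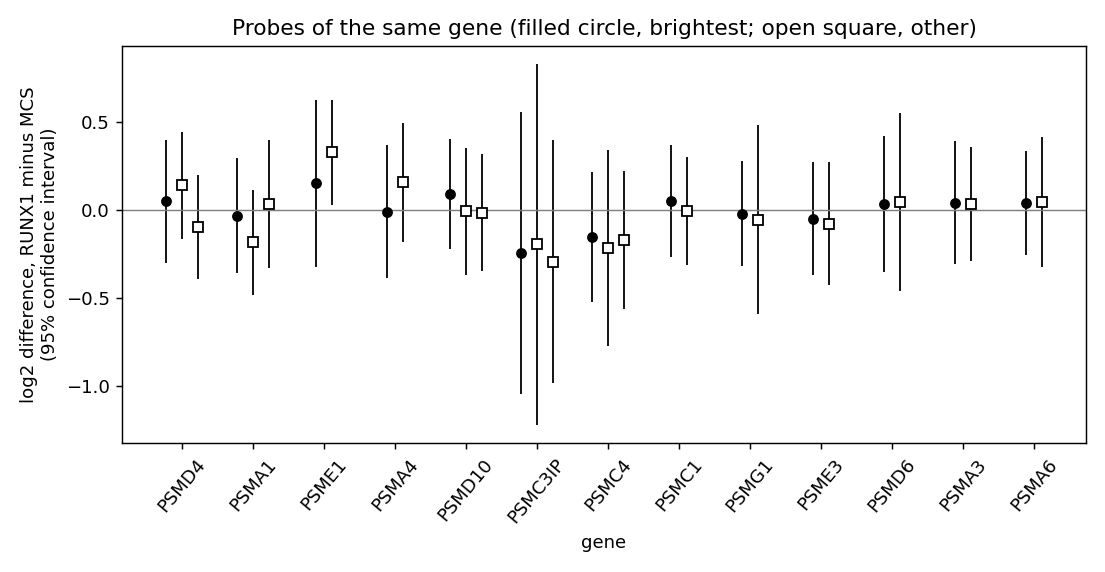
Log2 differences, RUNX1 minus MCS, with 95% confidence intervals (y axis) for each detected probe of the 13 genes that had several (x axis). Only the second PSME1 probe, which lies near background, has an interval above 0, before adjustment over all probes.

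Partners and regulators of the proteasome were read from a list of 36 symbols, of which 29 had a named probe and 26 were tested. Of these, 0 were called higher and 0 lower, with a median difference of 0.029. SEM1, a small lid subunit, was at 13.75, 13.74 and 13.69 with RUNX1 and 13.83, 13.62 and 13.57 with MCS. Its difference was 0.052 (95% confidence interval -0.25 to 0.35). NFE2L1, which drives proteasome gene transcription when activity falls, was at 8.64, 8.35 and 9.09 with RUNX1 and 8.41, 8.89 and 9.13 with MCS. It was lowest on RUNX1 replicate 2 and MCS replicate 1. Most proteasome genes were high on these arrays and on RUNX1 replicate 1, and a link between the values was not tested. The difference of NFE2L1 was -0.11 (95% confidence interval -0.70 to 0.48). The 4 with the smallest unadjusted p were UBA6, a ubiquitin-activating enzyme (0.34, 95% confidence interval -0.080 to 0.76), USP14, a deubiquitinase of the cap (-0.22, 95% confidence interval -0.55 to 0.10), NFE2L2, the antioxidant response factor (0.18, 95% confidence interval -0.12 to 0.48), and UBA1, the main ubiquitin-activating enzyme (-0.12, 95% confidence interval -0.40 to 0.15). UBA6 was at 8.09, 7.93 and 7.58 with RUNX1 and 7.49, 7.73 and 7.35 with MCS, NFE2L2 at 9.24, 8.97 and 9.09 with RUNX1 and 8.90, 8.98 and 8.88 with MCS. UBA1 was at 11.68, 11.61 and 11.61 with RUNX1 and 11.82, 11.77 and 11.68 with MCS. In these 3 the groups overlapped. USP14 was at 8.11, 7.93 and 7.73 with RUNX1 and 8.14, 8.18 and 8.12 with MCS, with each RUNX1 array below each MCS array. Its 2-sided exact permutation p was 0.1. VCP, the ATPase that extracts ubiquitinated proteins, was the other of the 26 whose groups lay apart (0.12, 95% confidence interval -0.15 to 0.39), beside 6.56% of all genes. It was named after its values were seen.
Since PSMB10, PSME1 and PSME2 respond to interferon, 14 interferon-responsive genes were read beside them. Of 12 with a named probe 8 were tested, 0 were called higher and 0 lower, and the median difference was 0.20, 6 above 0 and 2 below. UBE2L6, the ISG15-conjugating enzyme, was at 9.35, 9.44 and 8.95 with RUNX1 and 9.53, 8.73 and 8.51 with MCS. IFI6, an interferon-induced mitochondrial protein gene, stood at 10.06, 10.21 and 9.93 with RUNX1 and 10.30, 9.73 and 9.54 with MCS. Like PSME1 and PSME2, both were higher on RUNX1 replicates 1 and 2 and MCS replicate 1 than on the other 3 arrays, as was B2M, the light chain of MHC class I. The arrays where they were higher are those with scores above 0 on the first principal component over all genes. The share of all genes with this order was not counted. ISG15, a ubiquitin-like modifier, was lower on those arrays than on the other 3, at 7.55, 7.59 and 8.29 with RUNX1 and 7.82, 7.91 and 8.01 with MCS. The other 4 of the 8, IRF1, IRF9, OAS1 and IFIT1, did neither. B2M, ISG15, OAS1 and IFIT1 were named after their values were seen, and the part of these genes in the values of PSME1 and PSME2 was not tested. IRF1, an interferon-induced transcription factor, was at 7.15, 7.32 and 7.72 with RUNX1 and 6.99, 6.95 and 7.06 with MCS. IRF9, of the complex that answers type I interferon, was at 8.22, 8.19 and 8.48 with RUNX1 and 8.06, 7.96 and 7.97 with MCS. For IRF1 and IRF9 each RUNX1 array lay above each MCS array, beside 3.81% of all genes, with differences of 0.40 (95% confidence interval 0.0041 to 0.80) and 0.30 (95% confidence interval -0.013 to 0.61). Leaving out RUNX1 replicate 3 took that of IRF1 to 0.24, and leaving out RUNX1 replicate 1 to 0.53. The unadjusted limma p was 0.0482 for IRF1 and 0.0576 for IRF9, and each adjusted p was 1.00 from limma.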

How the data were processed

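Total RNA of HEK-293T cells transduced with RUNX1 or MCS lentivirus was hybridised by the authors to Illumina HT-12 v4 BeadChips, 3 arrays per group. The authors deposited the summarised intensity of each probe on a linear scale (BeadStudio, per the paper's methods), without background subtraction or normalization, with a detection p-value against the negative control probes. The authors also deposited values processed with lumi, taken here as log2, whose transformation and version are not given in the sources used here.
Intensities were corrected from the detection p-values, given an offset of 16, quantile-normalised and put on a log2 scale (neqc, limma 3.58.1, R 4.3.3). Probes were named through the platform annotation (30113 with 1 symbol, 8 with several, 17110 unnamed here). Probes with a detection p under 0.05 on 3 or more arrays were used, and of each gene the brightest (11129 genes from 18867 probes). The functions lmFit and eBayes compared the groups with no covariate (7.19 degrees of freedom), with Benjamini-Hochberg adjustment over all genes. The exact permutation test used all 20 ways to label 3 of 6 arrays. The number of arrays limits the precision.
A few symbols within the prefixes were left out by the rule. Members and lists were chosen with earlier results of these data known. Named genes were the catalytic subunits, the activators, the inhibitor and assembly factors, the 6 smallest p-values, the 3 largest differences each way, members with separate groups, the 5 widest ranges, the 4 genes with most discordant probes, and of each other list the 4 smallest p-values, plus SEM1 and NFE2L1. The alternatives were other background corrections, offsets, normalizations, detection filters, the mean of probes, the authors' values and array weights. Further alternatives were an unpaired t-test, a trend in eBayes, a replicate block and leaving out arrays. The test was tried on simulated data. Chip positions and batches of the arrays are not given in the sources used here. Promoter letters are those of RefSeq (GRCh38.p14).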

Additional observations from a re-analysis of the deposited data

How the results depend on the processing

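Counts of 0 called genes, members, member probes, partners and interferon-responsive genes held under the other processing settings and with each array left out, apart from array weights, which called 897 genes (513 higher, 384 lower) and 1 interferon-responsive gene, UBE2L6 (0.63, adjusted p = 0.0469 from limma), but 0 of the 42 members. With these weights the smallest adjusted p of a member was 0.0544 from limma, for POMP (0.42). RUNX1 replicate 3 (weight 0.279) and MCS replicate 1 (weight 0.314) counted least there. Chosen after the data were seen, the fit without both of these arrays called 1585 of the 11129 genes (890 higher, 695 lower). It called 3 of the 42 members (2 higher, 1 lower) and 4 of the 60 member probes (1 higher, 3 lower). The share of all probes called in this fit was not counted. It also called 0 of 26 partners and 1 of 8 interferon-responsive genes, UBE2L6 (0.78). The median over proteasome genes was 0.15, beside 0.055 over all genes. The counts for partners and interferon-responsive genes under all alternatives were also added after the data were seen. The median of proteasome genes was -0.11 with no normalization, where that of all genes was -0.17, and ran from -0.012 without MCS replicate 3 to 0.10 without MCS replicate 1.
Some differences changed sign with the processing, none of them past the test's threshold. With no normalization the median of all genes moved from 0.021 to -0.17, and the differences that turned below 0 with it, each still above that median, were PSMB7 (-0.046), PSME1 (-0.024), PSME2 (-0.063), PSME4 (-0.12), PSMD11 (-0.051), PSMD3 (-0.076), PSMD4 (-0.10), NFE2L2 (-0.035) and SEM1 (-0.084). The cause of a change of sign was not tested in any setting. Under median scaling the differences that changed sign were PSMB6 (0.053), PSMA1 (0.023) and PSMA4 (0.054). With the mean of detected probes they were PSMA4 (0.075) and SEM1 (-0.12). With array weights they were PSMB5 (0.030), PSMB6 (0.18), PSME3 (0.0078), PSMG2 (0.085), PSMG4 (0.13), PSMA1 (0.021) and PSMA4 (0.095). Without both arrays they were PSMB5 (0.054), PSMB6 (0.17), PSME3 (0.059), PSMG1 (0.021), PSMG2 (0.081), PSMG4 (0.21), PSMD3 (-0.10), PSMA1 (0.079) and PSMA4 (0.18). Leaving out 1 array at a time, the ranges that crossed 0 were NFE2L1 -0.31 to 0.057, PSMA1 -0.11 to 0.066, PSMA4 -0.11 to 0.10, PSMB10 -0.17 to 0.020, PSMB6 -0.085 to 0.11, PSMD3 -0.050 to 0.28, PSMD4 -0.027 to 0.15, PSME2 -0.054 to 0.38, PSME3 -0.12 to 0.014, PSME4 -0.020 to 0.12, PSMG1 -0.087 to 0.018, PSMG2 -0.12 to 0.023, PSMG3 -0.29 to 0.033 and PSMG4 -0.10 to 0.10. Ranges that did not cross 0 and are not given above were PSMB2 -0.14 to -0.079, UBA6 0.23 to 0.49, USP14 -0.32 to -0.13, NFE2L2 0.11 to 0.24, UBA1 -0.17 to -0.092, SEM1 0.0011 to 0.13, IRF9 0.21 to 0.35, UBE2L6 0.12 to 0.63 and IFI6 0.049 to 0.43. Of 693 single-gene values, 636 kept their direction and their side of the threshold. This count includes settings that cannot change a difference, namely the t-test, the trend in eBayes and the replicate block. For those the direction was fixed in advance.
Replicate numbers are shared between groups, and deviations of same-numbered arrays correlated at 0.57, -0.35 and 0.70, in the order of the numbers. Whether same-numbered arrays were handled together was not tested. With the number as a replicate block 0 genes and 0 of the 42 members were called. The median of 0.037 could not change there, because each number has an array in both groups. An unpaired t-test gave 360 genes and 0 of the 42 members at an unadjusted p under 0.05, and 0 genes after Benjamini-Hochberg adjustment. The paper's methods name this kind of test, but do not name it for the arrays. Probes near background and 3 arrays per group limit what could be detected.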
